A study of Mus musculus with 2 samples.

Results

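The ephrins and Eph receptors followed here were 10 genes, 5 ephrins (*Efnb1*, *Efnb2*, *Efna1*, *Efna2* and *Efna5*) and 5 receptors (*Epha3*, *Epha4*, *Epha7*, *Ephb2* and *Ephb3*), out of 27514 genes listed for both libraries. They were taken by gene symbol, with earlier results of these data known, and each was matched between the libraries by its Ensembl identifier. Another 12 genes of the family were used for comparison. Both samples were wild-type mouse coronal sutures of strain C57/BL6, the joint between the frontal and parietal bones of the skull roof, profiled by droplet single-cell RNA sequencing that counts unique molecular identifiers (UMIs) at the 3′ ends of transcripts.

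At E15.5 sutures of several embryos were pooled, digested with dispase and collagenase II and cleared of dead cells by a kit. The E17.5 library joined 3 batches from 2 litters, digested with collagenase IV and sorted by flow cytometry to remove debris, doublets and dead cells. The libraries were sequenced at different sites and to different mean reads per cell. With 1 library per stage no test between stages was possible. Stage, embryos, enzyme, sorting, sequencing site, read depth and counting run cannot be told apart. Intervals are 95% and cover counting error only (exact Poisson for levels, exact conditional for ratios, exact Clopper-Pearson for shares of cells). Sutures were pooled, so no value belongs to 1 embryo.

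The deposited labels cover osteogenic and mesenchymal cells in 15 clusters. Clusters OG1 to OG4 and the proliferating PO1 and PO2 form the osteogenic compartment, EC1 to EC4 and the ligament-like LIG the ectocranial compartment outside the bone, and MG1 to MG4 the meningeal compartment beneath it. There were 5335 labelled cells with 48607817 UMIs at E15.5 (median 8510 per cell) and 6830 with 92585034 UMIs at E17.5 (median 12301). Levels are given as UMIs per 1000000 UMIs of the same cells (CPM). MG1 held 28 cells and PO2 35 cells at E15.5, and their intervals there are wide. At E15.5 erythroid markers, which include hemoglobin genes, summed to between 5643 and 8708 CPM in the labelled clusters, against 362 to 601 CPM at E17.5. Of the labelled cells' barcodes, 42 occurred in both libraries. In both libraries arachnoid markers were highest in MG4 (644 CPM at E15.5 and 1536 CPM at E17.5) and dura markers in MG3. Ectocranial markers were highest in EC2 and osteogenic markers in OG4. At E15.5 OG2, PO1 and PO2 had only 48.0, 41.6 and 49.6 CPM of osteogenic markers. MG2 (86.3 CPM), LIG (80.2 CPM) and EC4 (69.9 CPM) had more. At E17.5 every osteogenic cluster had more of these markers than any other cluster. Pooled osteogenic levels at E15.5 include OG2, PO1 and PO2.

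Eph receptors are receptor tyrosine kinases, and ephrins are their ligands, which stay attached to the surface of the cell that makes them. Ephrin-A proteins are held by a lipid anchor and mostly bind EphA receptors, ephrin-B proteins span the membrane and mostly bind EphB receptors, and EphA4 binds ligands of both classes. Contact between cells signals in both directions, and the system is best known for keeping cell populations apart at tissue boundaries. In the skull, mutations of the human ephrin-B1 gene cause craniofrontonasal syndrome with coronal synostosis, and EphA4 acts with the transcription factor Twist1 at the boundary of the coronal suture.

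The upstream sequences of 3 members are shown because their levels stood out below: *Epha7* by compartment, *Efnb2* and *Ephb3* between the libraries. They come from RefSeq on GRCm38.p6, 5′ to 3′ on the gene's strand, and end before the annotated start of the gene. Capitals mark the E-box CANNTG, the letters bound by Twist1 and its partner Tcf12, searched on both strands (the motif reads the same on each).
Epha7 (chr4:28812881-28813130, plus strand): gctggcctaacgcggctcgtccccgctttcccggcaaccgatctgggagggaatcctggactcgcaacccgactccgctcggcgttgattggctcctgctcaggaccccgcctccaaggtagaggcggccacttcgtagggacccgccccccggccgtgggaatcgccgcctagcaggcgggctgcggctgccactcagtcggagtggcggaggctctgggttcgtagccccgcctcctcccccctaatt
Efnb2 (chr8:8661243-8661492, minus strand): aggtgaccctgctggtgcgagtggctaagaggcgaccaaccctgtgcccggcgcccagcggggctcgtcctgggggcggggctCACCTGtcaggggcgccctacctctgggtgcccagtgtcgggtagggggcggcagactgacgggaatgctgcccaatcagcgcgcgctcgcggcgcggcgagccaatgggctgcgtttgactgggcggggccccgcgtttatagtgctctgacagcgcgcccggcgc
Ephb3 (chr16:21204545-21204754, plus strand): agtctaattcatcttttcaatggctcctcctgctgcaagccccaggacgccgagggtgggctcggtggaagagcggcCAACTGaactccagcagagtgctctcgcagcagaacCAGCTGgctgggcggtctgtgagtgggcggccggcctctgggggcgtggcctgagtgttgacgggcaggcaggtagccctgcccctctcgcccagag
The *Efnb2* stretch held 1 E-box, CACCTG, which began 167 bases before the RefSeq start. The *Ephb3* stretch held 2, CAACTG at 173 bases and CAGCTG at 137 bases before the RefSeq start, and the *Epha7* stretch held none. The *Ephb3* stretch was cut to 210 bases, to end before the gene start given below (21204755), which lies upstream of the RefSeq start. Its E-box distances therefore do not count from the end of the letters shown. In the 250 bases before the start, 3 of the 10 members had an E-box (*Efnb2*, *Ephb2* and *Ephb3*), against 66.2% of the 32851 RefSeq promoters. A match is a run of letters and was not tied to binding.

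*Epha7*, an EphA receptor that guides axons and tissue closure elsewhere in the embryo, was the member most confined to a compartment, with its highest levels in the meningeal clusters at both stages. *Epha7* (ENSMUSG00000028289) lies on mm10 chromosome 4 from 28813131 to 28967499 on the plus strand. At E15.5 it stood at 60.2 CPM (43.0 to 82.0) in MG4, 57.0 CPM in MG3, 26.3 CPM in MG2 and 19.1 CPM in MG1, and between 2.07 and 16.6 CPM in the 11 osteogenic and ectocranial clusters. At E17.5 it stood at 239 CPM (218 to 262) in MG4, 75.0 CPM in MG1, 70.6 CPM in MG3 and 34.5 CPM in MG2, and between 2.38 and 12.6 CPM in the other 11 clusters. Every meningeal cluster was thus above every other cluster at both stages, although at E15.5 the MG1 value rested on 5 UMIs.

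Pooled over its clusters, the meningeal compartment had 40.1 CPM (35.1 to 45.6) of *Epha7* at E15.5, 5.24 times (4.36 to 6.30) the ectocranial level of 7.65 CPM. At E17.5 the meningeal level was 82.5 CPM (77.8 to 87.3), 9.42 times (8.17 to 10.9) the ectocranial level of 8.76 CPM. The osteogenic level was 7.38 CPM at E15.5 and 7.40 CPM at E17.5. Inside the meningeal compartment MG1 was 3.93 times (1.67 to 12.2) and MG4 3.97 times (2.87 to 5.63) as high in the later library, while MG2 and MG3 had ratios of 1.31 and 1.24. Outside it only EC4 had an interval above 1 (1.64, 1.03 to 2.65) and only EC2 one below 1 (0.542, 0.311 to 0.918). Within the ectocranial and osteogenic compartments the lowest levels at E17.5 were those of EC2 (2.77 CPM) and OG4 (2.38 CPM).

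In MG4, 42.2% of E15.5 cells (29.9 to 55.2) had an *Epha7* UMI, against 80.2% (74.0 to 85.5) at E17.5, with median depths of 9400 and 8905 UMIs. Thinned to 3000 UMIs per cell, these became 17.7% of 62 cells (2 shallower cells were left out) and 49.5% of 202 cells. Myeloid-like cells, which should lack the receptor, had no UMI among 225 thinned E15.5 cells (exact upper bound 1.63%) and a share of 0.208% among 480 E17.5 cells, with unthinned median depths of 9001 and 9557 UMIs. The MG4 shares lay above this background at both stages.

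All 3 E17.5 barcode suffixes, the tags that keep joined 10x runs apart, had *Epha7* in MG4, at 103 CPM (8 UMIs in 7 cells), 228 CPM (102 cells) and 262 CPM (93 cells). In MG3 the suffixes gave 65.8, 54.7 and 81.4 CPM, and in MG2 47.6, 33.3 and 25.9 CPM. Suffix 1 held no MG1 cell. The deposited files do not tie suffixes to litters, and these spreads join embryo and technical variation. Glia markers were also highest in MG4 at E17.5 (175 CPM, against 1903 CPM in glia-like cells), and glia-like cells had 32.8 CPM of *Epha7*, below the MG4 level. Their part in the MG4 value was not tested.

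**Figure D1:**
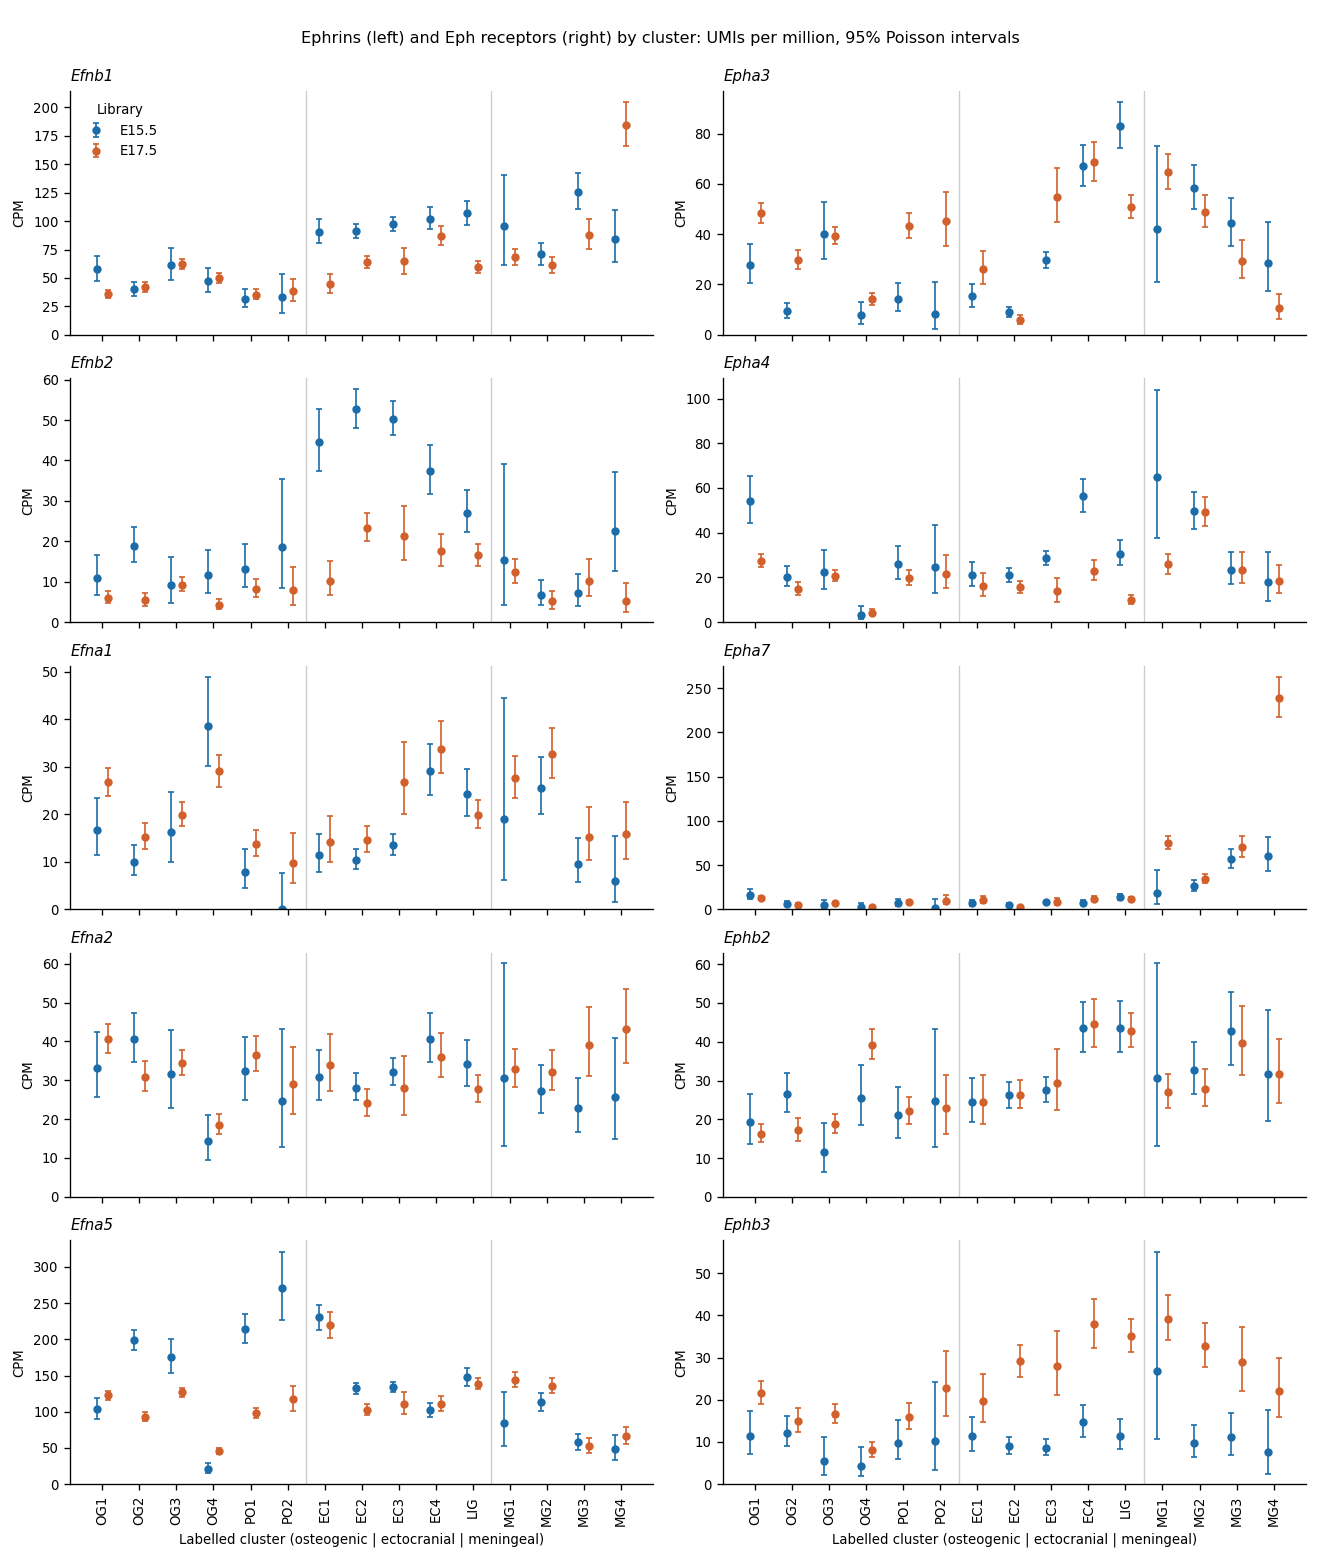
Levels of the 5 ephrins (left) and 5 Eph receptors (right) in CPM on the y axes, in the 15 labelled clusters on the x axes, with points for the E15.5 (blue) and E17.5 (orange) libraries, bars for 95% Poisson intervals and vertical lines between the compartments. *Epha7* stands out in the meningeal clusters, at 239 CPM in MG4 at E17.5, and *Efnb2* in the ectocranial clusters at E15.5.

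By the size rule used here, a pair of a gene and a cluster counted as enriched when, in both libraries, its CPM was 2 or more times the CPM over the remaining labelled cells. Over the 12150 genes with at least 50 UMIs in each library, 1.88% of 182250 pairs were enriched. Of the 150 member pairs, 2 were enriched (1.33%), *Epha7* in MG3 (5.94 times the other cells at E15.5 and 3.88 times at E17.5) and *Epha7* in MG4 (5.56 and 16.2 times). In MG4 itself 3.07% of the 12150 genes were enriched, and 1 of the 10 members was. The members' share of enriched pairs was near the background at this limit. At a limit of 1.5-fold it was not, with 17 of 150 member pairs (11.3%) against 4.62% of all pairs, a difference that was not tested.

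Lower levels were more frequent, and they gathered in OG4, the cluster with the highest mature osteoblast markers. A pair counted as lowered when the cluster's CPM was at most 1/2 of that of the other labelled cells in both libraries. This held for 12 of 150 member pairs (8%), against 5.8% of all pairs, and for 6 of the 10 members in OG4, against 15.3% of all genes in OG4. The 6 were *Efnb2*, *Efna5*, *Epha3*, *Epha4*, *Epha7* and *Ephb3*. The median ratio of OG4 to the other cells at E15.5 was 0.381 over the members and 0.688 over all genes tested. The E17.5 medians were 0.383 and 0.835. At E15.5 OG4 also had the highest level of mast cell markers among the labelled clusters, 386 CPM against 46410 CPM in mast cell-like cells, and their part in the ratios was not tested.

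OG4 also spent more of its UMIs on few genes, with 23.2% (E15.5) and 11.5% (E17.5) of them from its 10 most abundant genes. With median-of-ratios size factors in place of total UMIs, the median over all genes moved to 0.936 and 0.938, and 5 of the 6 members stayed under the limit. *Ephb3* was then at 0.582 and 0.360 times the other cells. The other lowered pairs were *Epha7* in EC2 and OG3, *Epha3* in EC2, *Efna5* in MG3, *Efnb2* in MG2 and *Efna1* in PO2.

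Among the ephrins, *Efnb1* (ENSMUSG00000031217, chromosome X from 99136130 to 99148991, plus strand) encodes ephrin-B1, the ligand of craniofrontonasal syndrome. At E15.5 its levels ran from 31.3 CPM in PO1 to 126 CPM (110 to 142) in MG3, and all 9 ectocranial and meningeal clusters were above all 6 osteogenic clusters. At E17.5 they ran from 35.4 CPM in PO1 to 185 CPM (166 to 205) in MG4, followed by 87.7 CPM in MG3 and 87.0 CPM in EC4. MG4 thus moved from 84.3 CPM at E15.5, within the range of its neighbors, to a level whose interval overlapped no other cluster at E17.5, a ratio of 2.19 (1.65 to 2.96). The pooled osteogenic level was 44.7 CPM at E15.5 and 46.2 CPM at E17.5, while the ectocranial level was 96.6 CPM and 64.5 CPM. At E17.5 the 3 suffixes gave *Efnb1* in MG4 at 38.7 CPM (3 UMIs in 7 cells), 180 CPM and 203 CPM, so the high value rested on suffixes 2 and 3.

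*Efnb2* (ENSMUSG00000001300, chromosome 8 from 8617434 to 8661242, minus strand) encodes ephrin-B2, known as the arterial ephrin of blood vessels. It was an ectocranial gene within the labelled cells. At E15.5 it stood at 52.7 CPM in EC2, 50.4 CPM in EC3, 44.5 CPM in EC1, 37.4 CPM in EC4 and 27.1 CPM in LIG, and between 6.74 and 22.6 CPM in the other 10 clusters. At E17.5 it was again highest in EC2 (23.4 CPM), EC3 (21.3 CPM), EC4 (17.6 CPM) and LIG (16.5 CPM), while EC1 had 10.3 CPM and the others lay between 4.29 and 12.4 CPM. The pooled ectocranial level was 3.19 times (2.72 to 3.77) the osteogenic level at E15.5 and 2.14 times (1.75 to 2.62) the meningeal level at E17.5, the next highest compartment in each library.

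*Efna5* (ENSMUSG00000048915, chromosome 17 from 62604184 to 62881317, minus strand) encodes ephrin-A5, a ligand of axon guidance and boundary formation. EC1 was high in both libraries, with 230 CPM (214 to 248) in the earlier and 219 CPM (201 to 238) in the later. PO2, PO1 and OG2 had 271, 214 and 199 CPM at E15.5, but 117, 97.9 and 93.3 CPM at E17.5. OG4 was lowest in both libraries at 21.0 CPM and 45.6 CPM, with MG4 (48.2 and 66.3 CPM) and MG3 (58.0 and 52.9 CPM) the next lowest in both. The order of the compartments differed between the libraries, with the osteogenic level highest at E15.5 (159 CPM, ectocranial 141 CPM, meningeal 86.2 CPM) and lowest at E17.5 (100.2 CPM, ectocranial 129 CPM, meningeal 118 CPM). Of the 1850 osteogenic *Efna5* UMIs at E15.5, OG2 gave 816, PO1 438 and PO2 131, the clusters low in osteogenic markers in that library. Their part in the change of order was not tested.

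*Efna1* and *Efna2* encode ephrin-A ligands. *Efna1* (ENSMUSG00000027954, chromosome 3 from 89271733 to 89281142, minus strand) was highest in OG4 at E15.5 (38.7 CPM, 30.2 to 48.9), followed by EC4 (29.1 CPM), MG2 (25.6 CPM) and LIG (24.3 CPM). In the later library EC4 (33.8 CPM), MG2 (32.6 CPM), OG4 (29.1 CPM) and MG1 (27.6 CPM) led, with intervals that overlapped that of EC4. It was the only member among the 10 whose highest cluster at E15.5 was OG4, and *Efna1* had no UMI in PO2 there, where 3 counts would be 6.20 CPM and the exact Poisson upper bound was 7.62 CPM. *Efna2* (ENSMUSG00000003070, chromosome 10 from 80179482 to 80190010, plus strand) varied least, from 14.4 CPM in OG4 to 40.7 CPM in OG2 at E15.5 and from 18.6 CPM in OG4 to 43.2 CPM in MG4 at E17.5. The intervals of 10 other clusters overlapped that of its highest cluster at E15.5 and those of 11 did at E17.5.

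Among the EphA receptors, *Epha3* (ENSMUSG00000052504, chromosome 16 from 63543534 to 63864175, minus strand) was highest at E15.5 in LIG and EC4, with 83.0 CPM (74.3 to 92.4) in LIG and 66.9 CPM (59.2 to 75.3) in EC4. At E17.5 EC4 (68.6 CPM) was first, followed by MG1 (64.7 CPM), EC3 (54.8 CPM) and LIG (50.8 CPM). EC2, the cluster with the highest summed ectocranial markers, had only 9.01 CPM (7.18 to 11.2) in the earlier library and 5.79 CPM (4.24 to 7.72) in the later. EC2 was the lowest of the 15 clusters at E17.5 and, beside OG4, among the low ones at E15.5. *Epha3* levels thus differed between ectocranial clusters in both libraries.

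*Epha4* (ENSMUSG00000026235, chromosome 1 from 77367185 to 77515088, minus strand) had the same lowest cluster in both libraries, OG4, at 3.32 CPM (6 UMIs) and 4.29 CPM (45 UMIs), with an interval that overlapped no other cluster. MG2 had nearly equal levels in the libraries, 49.5 CPM (41.8 to 58.2) and then 49.2 CPM (43.1 to 55.8), a ratio of 0.993 (0.805 to 1.23). EC4 had 56.4 CPM (49.4 to 64.2) from 231 UMIs in the earlier library and 22.9 CPM in the later. By in situ hybridization the paper found *Epha4* strongest in an outer ectocranial layer, which it considers likely to have been lost with the skin. The ectocranial levels of *Epha4* here may therefore not cover that layer. MG1 had 64.9 CPM from 17 UMIs in the earlier library and 25.8 CPM in the later, and OG1 had 54.1 and 27.5 CPM. At E15.5 OG1 also had the highest muscle and keratinocyte marker levels of the labelled clusters (778 and 467 CPM), and MG1 the highest chondrocyte marker level (1386 CPM). Their part in these values was not tested. At E17.5 MG2 was alone at the top, and its suffixes gave 52.0, 47.5 and 48.5 CPM. Thinned to 3000 UMIs, 11.1% of E15.5 and 13.95% of E17.5 MG2 cells had an *Epha4* UMI, against 3.11% and 0.417% of myeloid-like cells. Unthinned, with median depths of 7173 and 9260 UMIs, these MG2 shares were 30.6% and 37.0%.

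The EphB receptors bind the ephrin-B ligands. *Ephb2* (ENSMUSG00000028664, chromosome 4 from 136647539 to 136835988, minus strand) kept its leading clusters but not its whole order. LIG led with EC4 in both, at 43.6 and 43.5 CPM in the earlier library and 42.9 and 44.5 CPM in the later. OG3 (11.6 CPM) and OG1 (19.2 CPM) were lowest at E15.5, and the median ratio between libraries over the 15 clusters was 1.00. OG4 moved from 25.4 to 39.3 CPM (ratio 1.54, 1.14 to 2.14) and OG2 from 26.6 to 17.2 CPM (0.646, 0.498 to 0.838), while the ratio of OG3 was 1.62 (0.963 to 2.94). *Ephb3* (ENSMUSG00000005958, chromosome 16 from 21204755 to 21223305, plus strand) was sparse at E15.5, with 492 UMIs in all labelled cells and 4.42 CPM (OG4) to 26.7 CPM (MG1, 7 UMIs) per cluster. At E17.5 it ran from 8.003 CPM in OG4 to 39.2 CPM in MG1, 37.8 CPM in EC4 and 35.1 CPM in LIG. The interval of OG4 overlapped no other cluster at E17.5 and overlapped 11 others at E15.5.

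The compartment order of each member was then compared. The same compartment was highest in both libraries for 6 of 10 members, the meningeal compartment for *Efna1*, *Epha3*, *Epha4*, *Epha7* and *Ephb3* and the ectocranial one for *Efnb2*. For *Efna1* at E15.5 the ratio of the highest to the next compartment had an interval that included 1 (1.12, 0.899 to 1.39), as did that of *Ephb3* in both libraries (1.05, 0.791 to 1.38, and 1.05, 0.935 to 1.17). The osteogenic compartment was lowest for *Efnb1*, *Epha3*, *Epha7*, *Ephb2* and *Ephb3* in both libraries, and no receptor was highest there in either. Shares over all genes are not given for these compartment counts, so they do not set the members apart from other genes. The ectocranial level of *Epha4* may lack the outer layer named above. At E15.5 the osteogenic and ectocranial intervals of *Epha7* overlapped (5.90 to 9.11 and 6.71 to 8.69 CPM), and even the ratio of the highest to the lowest compartment of *Ephb3* had an interval that included 1 (1.12, 0.808 to 1.54).

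Between the libraries, *Ephb3* was the member most uniformly higher at E17.5 and *Efnb2* the member most uniformly lower. Over all labelled cells, *Ephb3* went from 10.1 CPM (9.25 to 11.1) to 23.03 CPM (22.1 to 24.03), a ratio of 2.28 (2.06 to 2.51). Its CPM was higher at E17.5 in all 15 clusters, with intervals above 1 in 11 of them, and the suffixes gave 21.7, 22.0 and 24.5 CPM. *Efnb2* went from 33.8 CPM (32.2 to 35.5) to 10.4 CPM (9.73 to 11.1), a ratio of 0.307 (0.283 to 0.333). It was lower in 14 of 15 clusters, with intervals below 1 in 9, and the suffixes gave 12.6, 9.69 and 10.1 CPM. The median of its cluster ratios was 0.471, nearer to 1 than the pooled ratio. The E17.5 library also had fewer cells in EC2 and EC3, where *Efnb2* was highest (608 and 194 cells, against 925 and 1185). Over the 12150 genes tested the median ratio of E17.5 to E15.5 was 1.00, with 4.88% of genes at or above 2-fold and 9.88% at or below 0.5-fold.

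Counted by pair, with at least 10 UMIs in either library, 19 of 150 member pairs were 2-fold or more higher at E17.5 (12.7%), against 10.6% of all 165728 pairs, and 17 were 2-fold or more lower (11.3%), against 9.59% of all pairs. These shares were near the background. *Ephb3* gave 9 of the 19 higher pairs, and *Efnb2* gave 8 of the 17 lower pairs. *Epha3* was higher in 3 osteogenic clusters, OG2 (9.26 against 29.6 CPM), PO1 (14.2 against 43.2 CPM) and PO2, and lower in MG4. *Efna5* was lower in the same 3 clusters, OG2, PO1 and PO2, with ratios of 0.469, 0.457 and 0.434. The marker levels of these 3 clusters also differed between the libraries. Osteogenic markers went from 48.0, 41.6 and 49.6 CPM at E15.5 to 549, 615 and 556 CPM at E17.5. Ectocranial markers went from 312, 262 and 279 CPM to 109, 147 and 154 CPM. The part of this difference in the *Epha3* and *Efna5* ratios was not tested. *Epha4* was lower in EC3, EC4, LIG and MG1, with ratios from 0.327 in LIG to 0.479 in EC3. *Ephb2* and *Efna2* had no pair past the limit in either direction.

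**Figure D2:**
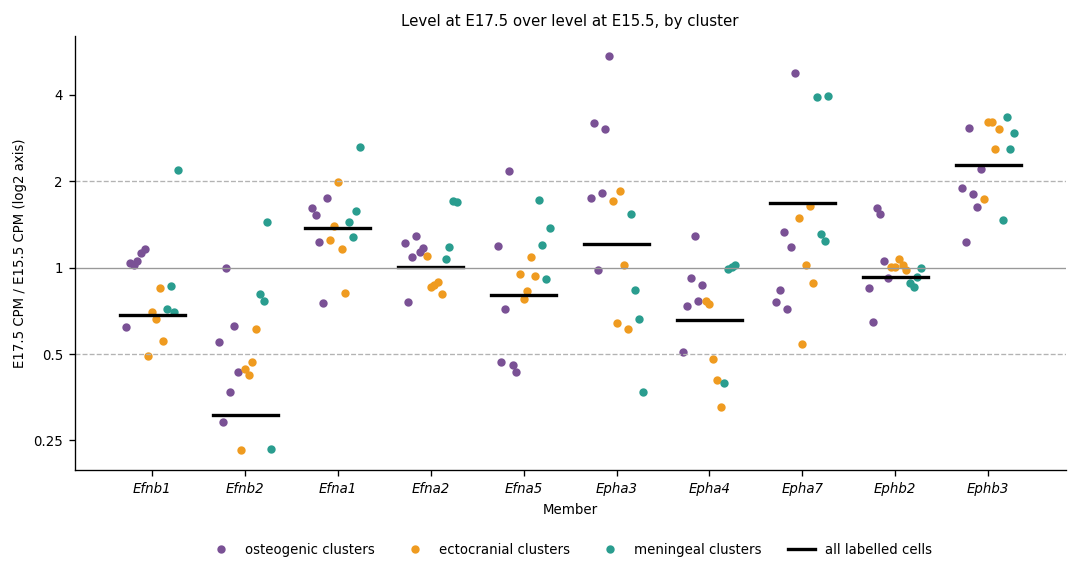
Ratio of the E17.5 level to the E15.5 level (log2 axis) for each member on the x axis, with 1 point per cluster colored by compartment, black bars for all labelled cells pooled and dashed lines at 2-fold and 0.5-fold, leaving out clusters with a count of 0 in a library or under 10 UMIs in both. All *Ephb3* points lie above 1 and 14 of the 15 *Efnb2* points below it.

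**Figure D3:**
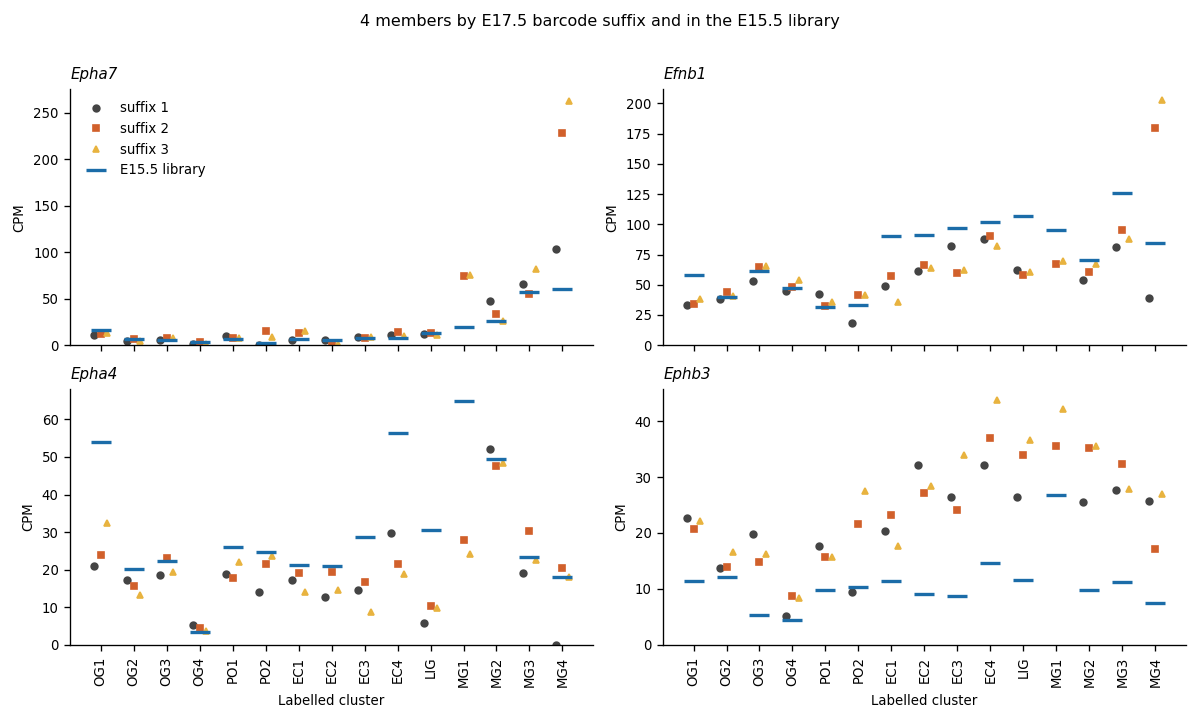
CPM on the y axes of *Epha7*, *Efnb1*, *Epha4* and *Ephb3* in the 15 labelled clusters on the x axes, in each E17.5 barcode suffix (points) and in the E15.5 library (blue dashes). The *Epha7* and *Efnb1* values of MG4 are higher in suffixes 2 and 3 than in suffix 1, which had 7 MG4 cells, and the *Ephb3* values lie above the E15.5 dash in most clusters.

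Cells outside the deposited labels were clustered in each library and named from marker lists. Endothelial-like cells carried 2 of the ephrins at levels above most labelled clusters. *Efna1* stood at 125 CPM (95.7 to 159) in 44 endothelial-like cells at E15.5 and at 204 CPM (182 to 227) in 119 at E17.5, above all 15 labelled clusters in both libraries. *Efnb2* stood at 47.5 CPM (30.4 to 70.6) and 39.8 CPM (30.5 to 51.0), above 13 of the 15 labelled clusters at E15.5 and above all 15 at E17.5. By interval, this *Efnb2* level lay above only 7 labelled clusters at E15.5 and above all 15 at E17.5, while that of *Efna1* lay above all 15 in both. After thinning, 29.0% of 31 endothelial-like cells at E15.5 (13 shallower cells were left out) and 46.2% of 119 at E17.5 had an *Efna1* UMI, against 0.889% and 0.833% of myeloid-like cells. Endothelial markers reached at most 90.3 CPM in a labelled cluster at E15.5 (MG4) and 90.7 CPM at E17.5 (MG3). The endothelial-like cells had 3063 and 4343 CPM of them. *Efna1* stood at 6.02 CPM in MG4 at E15.5 and at 15.2 CPM in MG3 at E17.5. The part of endothelial RNA in these levels was not tested.

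Myeloid-like, osteoclast-like and mast cell-like cells were low in nearly all members. In myeloid-like cells the 10 members ranged from 0.437 to 10.9 CPM in the earlier library and from 0.798 to 5.79 CPM in the later. Mast cell-like cells at E15.5 had 17.4 CPM (11.8 to 24.7) of *Efnb2* and at most 8.42 CPM of the other members. Chondrocyte-like cells were not compared between the libraries, since 198 of the 319 at E17.5 formed a cluster led by *Clu* and *Prg4*, while the E15.5 clusters with *Prg4* or *Cytl1* among their leading genes went unnamed. At E15.5, 599 chondrocyte-like cells had *Efnb1* at 60.3 CPM and *Efna5* at 47.2 CPM. Pericyte-like cells had *Efnb1* at 39.1 and 50.03 CPM and *Efna2* at 34.3 and 22.1 CPM. At E17.5, 32 glia-like cells had *Efnb1* at 71.6 CPM and *Ephb3* at 29.8 CPM, and 97 neuron or pineal-like cells had *Efna5* at 75.1 CPM. *Epha3* stayed at or below 13.2 CPM in every named type outside the labels in both libraries.

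**Figure D4:**
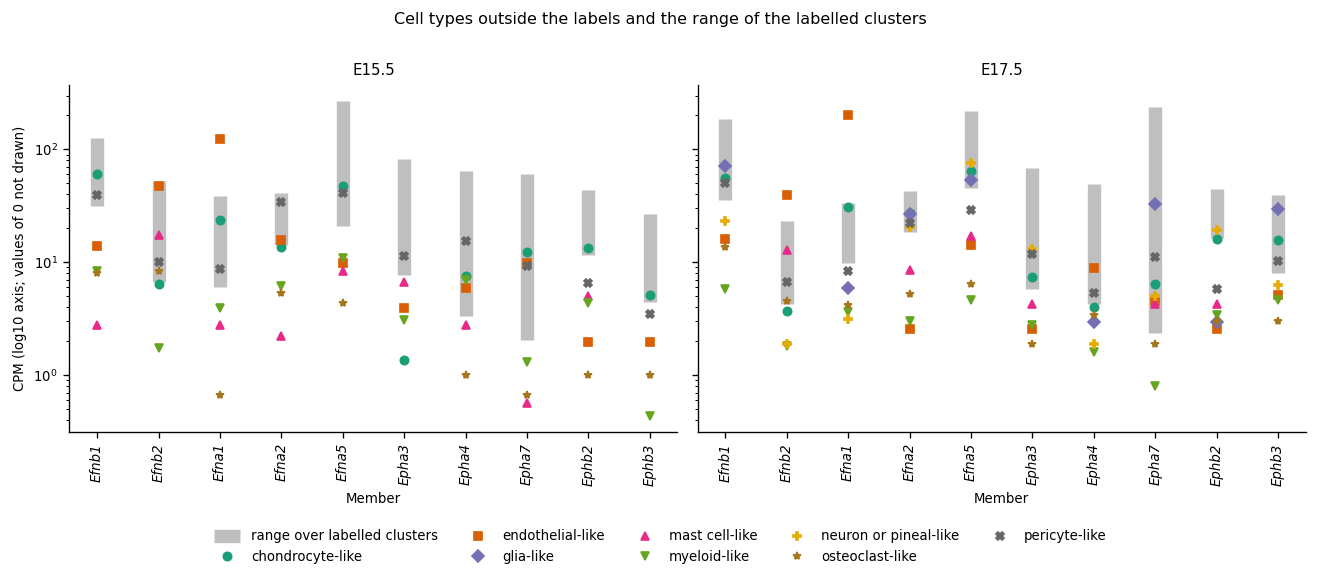
CPM (log10 axis) of each member on the x axis in the named cell types outside the labels (points) at E15.5 (left) and E17.5 (right), over grey bars for the range of the 15 labelled clusters, with values of 0 not drawn. The endothelial-like points lie above the grey bars for *Efna1* at both stages and for *Efnb2* at E17.5.

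Detection of ligands and receptors in the same cells was set beside their separate shares. Thinned to 3000 UMIs per cell, the share of cells with a UMI of at least 1 member ephrin and of at least 1 member receptor was lowest in OG4 at both stages, 3.98% (1.61 to 8.02) of 176 cells at E15.5 and 6.64% (4.67 to 9.12) of 527 cells at E17.5. LIG, 27.6% (23.6 to 31.8), and EC4, 24.1% (20.3 to 28.3), led in the earlier library. The later library was led by MG4, 36.1% (29.5 to 43.2), and MG1, 30.3% (25.9 to 34.9). In MG4 at E17.5 61.9% of cells had an ephrin UMI and 60.4% a receptor UMI, and in OG4 38.1% and 17.1%. In all 15 clusters of each library the product of the 2 separate shares lay within the interval of the joint share (37.4% for MG4 and 6.51% for OG4 at E17.5). Some intervals were wide, such as 2.35 to 29.2% for MG1 at E15.5, so a departure from the product could be missed. At E17.5 the joint share was below the product in EC2 (8.55 against 8.635%) and MG4, and above it in the other clusters. This difference was not tested. In myeloid-like cells 0.444% of 225 cells had both at E15.5 and none of 480 did at E17.5 (exact upper bound 0.766%). A cell with no UMI at this depth may still express the gene.

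**Figure D5:**
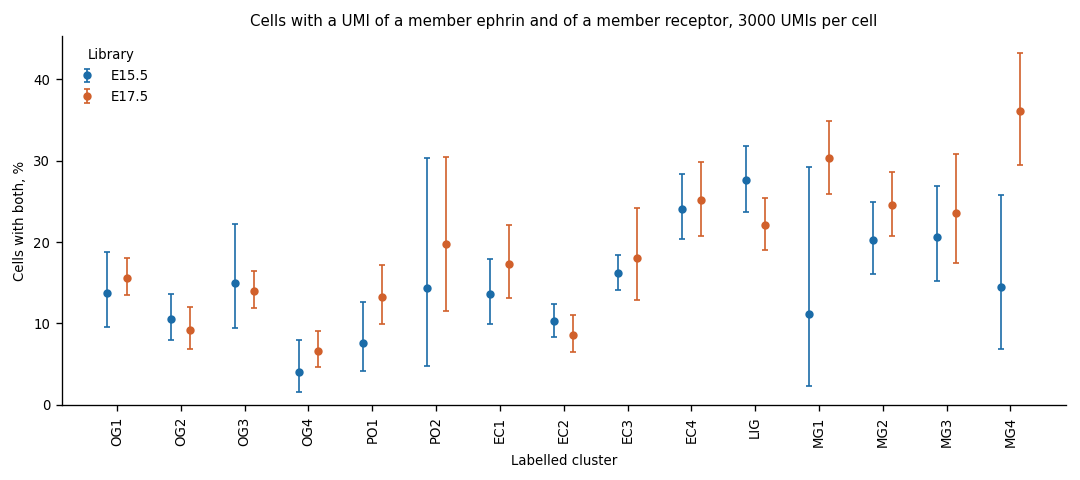
Percent of cells with UMIs of both a member ephrin and a member Eph receptor (y axis), after thinning to 3000 UMIs per cell, in the 15 labelled clusters (x axis) at E15.5 (blue) and E17.5 (orange), with 95% Clopper-Pearson bars. OG4 is lowest at both stages and MG4 at E17.5 is highest at 36.1%.

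Across the 13 clusters with at least 50 cells in both libraries, log2(CPM + 1) centered within each library gave 26 points per gene. As a description over these points, which share libraries and depth, *Epha7* followed *Efnb1* (Pearson r = 0.60), *Ephb2* followed *Efnb1* (0.56), *Epha4* followed *Efna2* (0.74) and *Epha4* followed *Ephb3* (0.62). *Efnb2* and *Epha7* had r = -0.29. The gene most like *Epha7* was *Tmem86a* (0.93), followed by *Scube3* (0.92) and *Xpc* (0.91). Those most like *Efnb2* were *Rap1b* (0.91), *Casp12* (0.90) and *Ubtd2* (0.90), and those most like *Ephb3* were *Sema6c* (0.91), which encodes a semaphorin, *Lama2* (0.89), a laminin chain, and *Fnbp1* (0.89). *Pcdhb17*, *Gnas* and *Sfrp1* led for *Efnb1* (0.88, 0.85 and 0.85), *Dync2h1*, *Rp9* and *Tceal1* for *Epha4* (0.89, 0.88 and 0.85), and *Tnrc6c*, *Col8a2* and *Tgfb3* for *Epha3* (0.88, 0.84 and 0.83). *Igsf10*, *Mcmbp* and *Adcy7* led for *Efna5* (0.88, 0.85 and 0.85), *Cadm1*, *Supt4a* and *Wisp1* for *Efna1* (0.85, 0.82 and 0.78), *Zfp422*, *D430042O09Rik* and *Cdkn2aip* for *Efna2* (each 0.85), and *AI464131*, *Nxn* and *Adamts7* for *Ephb2* (0.81, 0.81 and 0.78).

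Of the 12 other family genes, 8 had at least 50 UMIs in each library, and 9 of their 120 pairs were enriched (7.5%), against 1.88% of all pairs. Another 20 of the 120 were lowered (16.7%), against 5.8% of all pairs, and 5 of the 8 genes were lowered in OG4, against 15.3% of all genes. These differences were not tested. Of the 20 lowered pairs *Epha1* gave 8, from only 115 UMIs at E15.5 and 91 at E17.5 in all labelled cells, and *Epha5* gave 6. *Ephb6*, a receptor without kinase activity, was enriched in MG4 (12.04 CPM at E15.5 from 8 UMIs and 17.9 CPM at E17.5, 4.04 and 3.69 times the other cells). *Epha2* was enriched in OG3 (18.6 and 13.8 CPM, 5.56 and 2.91 times). *Efnb3* was enriched in MG3 and MG4, and *Epha5* in LIG and MG4, so that 3 of the 8 genes were enriched in MG4, against 3.07% of all genes. Of 24 genes that carry or modulate Eph and ephrin signals, 22 were tested, with 10 of 330 pairs enriched (3.03%) and 16 lowered (4.85%). The highest ratios were those of *Chn1*, the chimaerin that acts below EphA4, in OG4 (9.44 and 4.67 times) and *Tiam1*, a Rac exchange factor, in EC4 (3.44 and 3.54 times).

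The 7 coronal suture boundary genes had 13 of 105 pairs lowered (12.4%), against 5.8% of all pairs, a difference that was not tested. Of the 13, *Runx2* gave 4 and *En1* gave 3. Another 2 pairs were enriched (1.9%), against 1.88% of all pairs. They were *Jag1* in EC1 (4.96 and 5.001 times) and *Msx2* in MG2 (5.28 and 2.07 times). *Jag1* encodes a Notch ligand, and EC1 was also the highest cluster of *Efna5* at E17.5. *Twist1* and *Tcf12*, mutated in Saethre-Chotzen syndrome and in coronal synostosis, had no enriched and no lowered pair. In all labelled cells *Twist1* stood at 34.4 CPM at E15.5 and 94.1 CPM at E17.5, and *Tcf12* at 80.8 and 72.2 CPM.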

How the data were processed

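Single-cell RNA was measured in 1 E15.5 and 1 E17.5 mouse coronal suture library (10x 3′ kit, version 2). The authors deposited UMI counts per gene and barcode, aligned to mm10 with Cell Ranger. The methods name version 2.1.1, while 3.1.0 stands in the E15.5 matrix itself, which lists 31053 genes against 27998. The deposited cluster table, of cells kept after the authors' Seurat 3.2.0 filters (at least 1000 UMIs and 1000 genes, at most 7.5% mitochondrial and 3% hemoglobin reads), labels 5340 cells at E15.5, of which 5335 were in the matrix, and 6830 at E17.5. At E15.5 no cell's UMI total equaled the value in that table (medians 8510 and 11513) and 93 labelled cells fell outside the stated limits, while at E17.5 all 6830 totals were equal.

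Counts were summed per cluster and library and divided by the total (Python 3.11.15, numpy 2.4.6). No test between stages was possible, and a 2-fold size rule was used. Genes with at least 50 UMIs in each library were compared. A count of 0 has a limit of 3 counts. Unlabelled cells (2875 and 1937) were clustered (scanpy, 2000 variable genes, 30 components, 30 neighbors, resolution 1) and named where at least 5 of 6 markers were 2-fold higher and no other type had more markers among the 10 leading genes. The number 5 replaced 3 after the clusters' leading genes were seen. No doublet caller was run, and alternatives left out likely mixed cells. All 10 members were described. Of the other lists, the 2 highest enrichment ratios were named, with other genes of these lists chosen after their values were seen, and the 3 genes most correlated with each member. Members and lists were chosen with earlier results of these data known. Positions are from GENCODE M21, in which no other gene covers a member's 3′ end. Functions were tested on simulated counts. Protein sequences were not used here.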

Additional observations from a re-analysis of the deposited data

Results flagged for a closer look

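In 5 contrasts between compartments of 4 members, the interval of the ratio lay below 1 in one library and above 1 in the other. Each rests on 1 library per stage, and the difference between the libraries was not tested. The share of all genes with such a change is not given here, so these 5 are not set apart from other genes. *Efnb2* in meningeal over osteogenic cells was at 0.631 (0.454 to 0.864) at E15.5 and 1.29 (1.04 to 1.58) at E17.5. *Efna2* in meningeal over ectocranial cells was at 0.8003 (0.670 to 0.951) at E15.5 and 1.22 (1.09 to 1.37) at E17.5. *Efna5* in meningeal over osteogenic cells was at 0.543 (0.491 to 0.599) at E15.5 and 1.18 (1.11 to 1.24) at E17.5, and in ectocranial over osteogenic cells at 0.886 (0.839 to 0.936) and 1.28 (1.23 to 1.34). *Epha4* in ectocranial over osteogenic cells was at 1.20 (1.05 to 1.37) at E15.5 and 0.824 (0.730 to 0.928) at E17.5. The cells of a compartment were spread differently over its clusters in the libraries, with 28 MG1 cells at E15.5 against 423 at E17.5 and 140 OG3 cells against 927. The osteogenic clusters OG2, PO1 and PO2 were also low in osteogenic markers at E15.5, at 41.6 to 49.6 CPM. Their part in these ratios was not tested.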

How the results depend on the processing

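No paired analysis was possible because each stage had 1 library. Of the member counts, the 2 enriched pairs became 4 after thinning to 3000 UMIs (with *Epha3* in EC4 and *Epha7* in MG1), 4 with E17.5 barcode suffix 1 alone (with *Epha3* in EC4 and *Epha7* in MG2) and 17 at a limit of 1.5-fold (11.3%, against 4.62% of all pairs). At that limit 39 stage pairs were higher and 29 lower at E17.5, against 20.4% and 18.9% of all pairs. *Epha7* in MG3 and MG4 stayed enriched under every alternative run. The number of members lowered in OG4, an alternative set added after the data were seen, was between 5 and 7, and that of members with the same highest compartment between 5 and 8. With suffix 1 alone, MG4 (7 cells) turned below the other cells for *Efnb1* (0.714 times) and *Efna2* (0 times), and MG1 had no cell. Leaving out cells with markers of other types removed 18% of E15.5 and 54.2% of E17.5 labelled cells. With Spearman's coefficient 4 of the 30 most similar genes were shared with the Pearson choice, so these names depend on the coefficient. At resolution 0.6, 10 of 140 levels outside the labels left their interval. Depth limits MG1 and PO2 at E15.5, where several members had under 10 UMIs.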
